A study of Mus musculus with 23 samples.

Results

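The hypothalamic response of db/db mice to 4 days of celastrol was measured on 8 of the 23 arrays of the series: 4 from mice given celastrol and 4 from mice given the vehicle DMSO. The arrays were chosen by their titles, which give the treatment and the time, and the comparison runs over all 18704 genes that a probe set names alone. Both groups, like all of the series, were male mice of 8 weeks, homozygous for the diabetes (db) mutation of the leptin receptor gene, kept on chow for 2 weeks and injected intraperitoneally. The DMSO volume was 25 µl per day. The celastrol dose is labelled as 250 µg/kg for the 6 h group, and no dose at 4 days is stated in the labels. The other 15 arrays are the celastrol and vehicle groups of 6 h and 1 day. The titles number the arrays as biological replicates without naming animals, so the p-values measure the spread between these samples.

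Celastrol, a triterpenoid from the roots of thunder god vine, makes obese mice with an intact leptin receptor eat less. Leptin acts in the hypothalamus on neurons that make feeding peptides, and db/db mice lack the long, signalling form of its receptor in every tissue, so they overeat and become obese and diabetic. The hypothalamus surrounds the third ventricle, which is lined by ependyma and tanycytes, and its outer face is covered by the leptomeninges, whose fibroblasts also follow larger vessels into the tissue and carry transporters between cerebrospinal fluid, blood and brain. The comparison asks which transcripts differ with the drug in animals without leptin signalling. All values below are log2 expression, and differences are celastrol minus vehicle on that scale. A tissue sample is a mixture, so fewer cells of a type and less RNA per cell cannot be told apart.

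Array medians over the 18704 genes lay between 8.59 and 8.67 in the series, and arrays of a group correlated at 0.996 to 0.997 at 4 days. Npy, a peptide of arcuate neurons that marks the labelled tissue, lay at percentile 94.4 of gene levels. The spread over genes on an array was 1.912 ± 0.0283 with celastrol and 1.895 ± 0.00931 with vehicle (SD, n = 4 each; exact permutation test, 2-sided p = 0.314, adjusted p = 0.629 over 2 tests, where the smallest p possible is 0.0286). With 4 arrays a group, which sets the precision, the half-width of the 95% confidence interval of a difference was 0.136 for the median gene.

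Arrays of the vehicle group stood apart from each other in markers of the tissue taken. The mean of 25 genes that mark meningeal and perivascular fibroblasts was 8.61, 8.51, 8.65 and 8.35 on celastrol replicates 1 to 4, against 9.07, 9.19, 9.16 and 8.41 on vehicle replicates 1 to 4. Vehicle replicates 1, 2 and 3 were higher than each of the other 20 arrays of the series, which reached at most 8.83, and vehicle replicate 4 lay within the range of the celastrol arrays. For 12 pituitary markers the mean was 7.60, 7.34, 7.56 and 7.38 with celastrol, against 7.76, 8.46, 7.85 and 7.46 with vehicle, with vehicle replicate 2 highest. For 14 thalamus markers it was 9.03, 9.10, 8.99 and 9.20 with celastrol, against 8.98, 9.20, 9.30 and 9.69 with vehicle, with vehicle replicate 4 highest. The genes named here that passed after adjustment without vehicle replicate 4, and the fibroblast, transporter, complement and thalamus lists, are given with and without it. The plot of the fibroblast mean on every array shows vehicle replicates 1 to 3 at 4 days above all others.

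**Figure D1:**
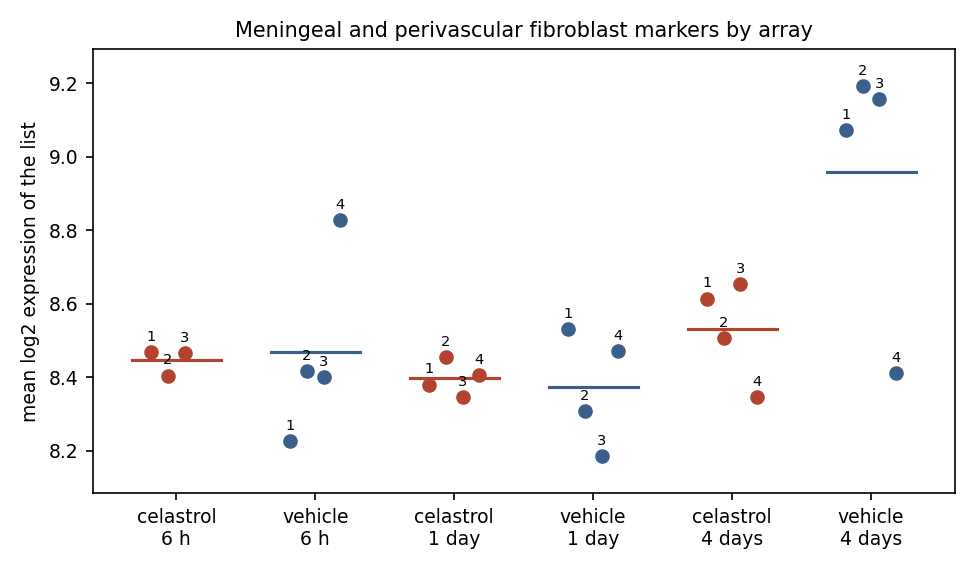
Mean log2 expression of 25 meningeal and perivascular fibroblast markers on each of 23 arrays (points, labelled by replicate number) by group, with the group mean as a line. The 4 celastrol arrays of 4 days lie between 8.35 and 8.65, as does vehicle replicate 4 at 8.41, while vehicle replicates 1 to 3 of 4 days lie between 9.07 and 9.19.

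At 4 days 0 genes passed an adjusted p of 0.05 (limma, Benjamini-Hochberg over 18704 genes, 0% called). At an unadjusted p under 0.05 stood 1364 genes, or 7.29% of those tested: 510 were higher with celastrol (2.73%) and 854 lower (4.57%). In 350 genes (1.87%) the lowest celastrol array exceeded the highest vehicle array, and in 304 genes (1.63%) the highest celastrol array was under the lowest vehicle array. Differences were small. The median size was 0.0484, and 28 genes differed by over 0.5, of which 26 were lower and 2 higher. Of those 28, 12 are on the lists of meningeal fibroblasts or of transporters of the brain borders, and 3 are pituitary genes. Of all genes 49.7% were higher with celastrol. Direction went with expression level. In the third of genes with the lowest levels 37.1% were higher with celastrol, and 499 were lower at an unadjusted p under 0.05 against 137 higher. In the third with the highest levels 62.2% were higher, and 168 were higher against 59 lower. The split of calls moved with the scaling and with the genes and arrays used. With the spread of each array as a covariate 606 genes were higher and 747 lower at an unadjusted p under 0.05, and after a further quantile normalization 650 were higher and 708 lower. With the genes of lowest level left out (the lowest tercile) 435 were higher and 394 lower, and with only the genes above the median level 364 were higher and 183 lower. With the vehicle arrays of all times as the control 1915 were higher and 919 lower.

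Markers of the fibroblasts of meninges and vessels had the largest median difference of the 45 gene lists. All 25 of their measured markers were lower with celastrol, with a median of -0.405 beside a median of -0.000534 over all genes. An unadjusted p under 0.05 was reached by 16 members, all lower, or 64% of the list beside 4.57% of all genes, and 0 passed after adjustment. Vehicle replicate 4 was the lowest vehicle array for 24 of the 25 and lay within the celastrol range for 18. Vehicle replicates 1, 2 and 3 were above all celastrol arrays for 21. Of 1217 odorant, vomeronasal and taste receptor genes, vehicle replicate 4 was the lowest vehicle array for 328 and within the celastrol range for 761. Vehicle replicates 1, 2 and 3 were above all celastrol arrays for 39 of those 1217.

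Tbx18, a T-box transcription factor of mural and meningeal cells, measured 6.69, 6.85, 6.85 and 7.0 on celastrol replicates 1 to 4, against 7.34, 7.38, 7.34 and 7.04 on vehicle replicates 1 to 4. The groups did not overlap, and the difference was -0.43 ± 0.0878 SE (limma, adjusted p = 0.175). Igfbp2, which encodes a carrier of insulin-like growth factors in cerebrospinal fluid, measured 7.85, 7.66, 7.89 and 7.67 with celastrol, against 8.26, 8.53, 8.35 and 7.84 with vehicle. Vehicle replicate 4 lay between the celastrol arrays, and the mean with celastrol was 71.8% of the vehicle level. Slc6a20a, a proline transporter, had the largest difference of the list. It measured 9.96, 9.90, 10.01 and 9.66 with celastrol, against 10.95, 11.16, 11.17 and 9.76 with vehicle, a difference of -0.88 ± 0.233 SE (limma, adjusted p = 0.311).

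Promoter windows of these 3 genes are shown because the members of the list moved together between arrays. They are RefSeq windows on GRCm38.p6 that run from 250 bases before to 50 bases after a gene start, written along the gene's strand, and the first start is shown where a gene has several. The windows are chr9:87731211-87731510 on the minus strand for Tbx18, chr1:72824230-72824529 on the plus strand for Igfbp2 and chr9:123678783-123679082 on the minus strand for Slc6a20a. Capitals mark matches, on either strand, to the GC box GGGCGG, the CCAAT box CCAAT, the TATA box TATAAA and the forkhead site GTAAACA, and no match overlaps another in these windows.
Tbx18: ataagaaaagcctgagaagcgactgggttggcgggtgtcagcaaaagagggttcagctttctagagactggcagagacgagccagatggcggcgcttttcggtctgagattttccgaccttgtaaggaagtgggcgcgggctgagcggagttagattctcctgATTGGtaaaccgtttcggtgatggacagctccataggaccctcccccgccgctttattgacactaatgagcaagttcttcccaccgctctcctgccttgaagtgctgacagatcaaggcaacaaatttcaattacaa
Igfbp2: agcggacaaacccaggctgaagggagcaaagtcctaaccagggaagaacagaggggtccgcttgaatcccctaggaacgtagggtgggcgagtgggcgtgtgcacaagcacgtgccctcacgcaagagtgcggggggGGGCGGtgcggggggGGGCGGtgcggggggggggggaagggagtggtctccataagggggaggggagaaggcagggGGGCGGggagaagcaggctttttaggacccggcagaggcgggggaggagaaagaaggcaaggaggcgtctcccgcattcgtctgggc
Slc6a20a: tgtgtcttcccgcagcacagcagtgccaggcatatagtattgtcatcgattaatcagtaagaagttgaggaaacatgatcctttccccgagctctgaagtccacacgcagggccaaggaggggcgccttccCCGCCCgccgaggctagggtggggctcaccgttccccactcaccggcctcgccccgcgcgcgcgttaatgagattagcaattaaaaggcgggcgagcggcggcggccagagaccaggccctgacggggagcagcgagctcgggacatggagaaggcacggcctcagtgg

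Tbx18 held 1 CCAAT box, Igfbp2 held 3 GC boxes and Slc6a20a held 1. Of the 25 genes, 18 were in the RefSeq table, with 24 windows. The GC box was in 8 of these windows (33.3%), beside 35.7% of all 32851 windows. The CCAAT box was in 10 (41.7%, beside 37.4%), the TATA box in 2 (8.33%, beside 13.6%) and the forkhead site in 1 (4.17%, beside 3.65%). The matches describe the letters of these windows alone.

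The insulin-like growth factor system was taken as a list of its own. Igf2, the foetal growth factor that leptomeninges keep making in adults, measured 9.84, 9.69, 9.94 and 9.64 with celastrol, against 10.54, 10.73, 10.77 and 9.62 with vehicle. Vehicle replicate 4 was the lowest of the 8 arrays, and the difference was -0.64 ± 0.197 SE (limma, adjusted p = 0.388). Without that array it was -0.90 ± 0.155 SE (limma, adjusted p = 0.0067). Of its 18 measured genes 12 were lower and 6 higher, with a median of -0.04. The 3 at an unadjusted p under 0.05 were Igf2, Igfbp2 and Igfbp6, all lower, which is 16.7% of the list beside 4.57% of all genes. Igfbp6, a binding protein with a preference for Igf2, measured 6.78, 6.76, 7.01 and 6.89 with celastrol, against 7.18, 7.29, 7.07 and 7.09 with vehicle, so that its groups did not overlap. Bmp6 and Bmp7, bone morphogenetic proteins that were named after their values were seen, differed by -0.43 ± 0.137 SE and -0.39 ± 0.109 SE (limma, adjusted p = 0.418 and 0.342), and without vehicle replicate 4 by -0.59 and -0.54 (limma, adjusted p = 0.037 and 0.0022).

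Genes of the extracellular matrix differed by unequal amounts. Fmod, the collagen-binding proteoglycan fibromodulin, measured 9.26, 9.23, 9.61 and 8.65 with celastrol, against 10.19, 10.53, 10.48 and 9.01 with vehicle (difference -0.86 ± 0.264 SE). Itih2, a chain that is attached to hyaluronan in the extracellular matrix, measured 8.06, 7.89, 7.85 and 7.58 with celastrol, against 8.74, 9.08, 8.91 and 7.80 with vehicle (difference -0.79 ± 0.195 SE). Both had vehicle replicate 4 inside the celastrol range and replicates 1 to 3 above it. Osteoglycin (Ogn) differed by -0.79 and decorin (Dcn) by -0.41, and both were named after their values were seen, as were Ptgds and Col1a1. Ptgds, which is an enzyme and no matrix gene, makes prostaglandin D2 and was among the most abundant transcripts of the arrays. It measured 13.09, 13.04, 13.12 and 12.86 with celastrol, against 13.46, 13.50, 13.59 and 12.86 with vehicle. The fibrillar collagen gene Col1a1 differed by -0.17 and did not reach an unadjusted p of 0.05. Over 43 collagen genes, 39 were lower with a median of -0.08, and 5 were lower at an unadjusted p under 0.05, or 11.6% beside 4.57% of all genes, among them Col14a1 (-0.23) and Col4a4 (-0.22). Vehicle replicates 1, 2 and 3 were above all celastrol arrays for 6 of the 43, and against vehicle replicate 4 alone 20 were lower with a median of 0.0063. Of 21 genes of heparan sulfate synthesis and editing 1 had vehicle replicates 1, 2 and 3 above all celastrol arrays.

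Among genes of transcription factors and of retinoic acid metabolism known from meninges, several had vehicle replicate 4 among the celastrol arrays or under them. Osr1, a zinc finger factor of connective tissue, measured 8.18, 8.41, 8.56 and 7.79 with celastrol, against 9.36, 9.51, 9.47 and 8.19 with vehicle, a difference of -0.89 ± 0.247 SE (limma, adjusted p = 0.318) that was -1.21 without vehicle replicate 4 (limma, adjusted p = 0.0064). Foxc1, a forkhead factor needed for meninges to form, measured 7.65, 7.67, 7.61 and 7.42 with celastrol, against 7.98, 8.20, 7.99 and 7.33 with vehicle. For Foxc1 vehicle replicate 4 was the lowest array of all 8, and for Osr1 it lay among the celastrol arrays. Aldh1a2, the enzyme by which adult meninges make retinoic acid, measured 8.23, 8.14, 8.10 and 7.94 with celastrol, against 9.17, 8.98, 9.02 and 8.04 with vehicle, which is 61.6% of the vehicle level on average. The retinoic acid carrier Crabp2 differed by -0.31 and the retinol carrier Rbp4 by -0.25. Of 20 genes of thyroid hormone and retinoid handling, 11 were higher and 9 lower, with 3 in each direction at an unadjusted p under 0.05, or 15% each way beside 2.73% higher and 4.57% lower over all genes.

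Transporters of the borders between blood, cerebrospinal fluid and brain formed the next list. Of 20 carriers of organic anions, cations and amino acids, 18 were lower with a median of -0.17, and 11 were lower at an unadjusted p under 0.05, or 55% beside 4.57% of all genes. Without vehicle replicate 4 that median was -0.28, and against vehicle replicate 4 alone it was 0.07 with 8 of the 20 lower. This list shares members with that of the fibroblasts. Slc6a13, a carrier of GABA and taurine, measured 8.90, 8.72, 8.97 and 8.45 with celastrol, against 9.74, 9.99, 9.91 and 8.52 with vehicle (difference -0.78 ± 0.238 SE). Slc22a6, the organic anion transporter OAT1, measured 7.77, 7.69, 7.73 and 7.93 with celastrol, against 8.41, 8.56, 8.60 and 7.67 with vehicle. Vehicle replicate 4 was within the celastrol range for Slc6a13 and under it for Slc22a6. Slc13a3, a carrier of dicarboxylates, measured 9.18, 9.17, 9.35 and 9.21 with celastrol, against 9.96, 10.06, 10.21 and 9.14 with vehicle, and Slc6a12, a betaine carrier, 8.29, 8.33, 8.29 and 8.23 with celastrol, against 9.27, 9.50, 9.26 and 7.91 with vehicle. Slc22a2, a carrier of organic cations, differed by -0.36 ± 0.0862 SE (limma, adjusted p = 0.306).

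Kcnj13, an inward-rectifier potassium channel that is also found in choroid plexus, had the largest difference of any gene at an unadjusted p under 0.01. It measured 8.03, 7.77, 7.78 and 7.47 with celastrol, against 8.94, 9.38, 9.18 and 7.62 with vehicle, a difference of -1.02 ± 0.284 SE or 49.3% of the vehicle level (limma, adjusted p = 0.326). Without vehicle replicate 4 the difference was -1.41 (limma, adjusted p = 0.0029). Slc13a4, a sulfate carrier, measured 8.72, 8.67, 8.97 and 8.48 with celastrol, against 9.72, 9.79, 10.15 and 8.66 with vehicle. Both are on the choroid plexus list, whose members did not all share the pattern. Of its 19 genes 10 were higher and 9 lower, with a median of 0.01. At an unadjusted p under 0.05, 3 were lower and 1 higher, or 15.8% and 5.26% beside 4.57% and 2.73% of all genes. Vehicle replicate 4 was the lowest vehicle array for 10 of the 19. The mean of the list was 7.73, 7.65, 7.74 and 7.76 with celastrol, against 7.76, 7.87, 7.87 and 7.67 with vehicle. Ttr, the thyroid hormone carrier that defines choroid plexus, measured 8.06, 7.38, 7.73 and 8.53 with celastrol, against 7.25, 7.69, 7.40 and 7.53 with vehicle, so the groups overlapped (difference 0.46 ± 0.218 SE). Folr1, the folate receptor of that tissue, differed by -0.16.

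The count of genes past adjustment depended on vehicle replicate 4. Without it 39 genes passed (limma, adjusted p under 0.05, 0.209% of those tested), 38 lower and 1 higher, against 0 with it; leaving out any other array of the 8 gave 0 genes or 1. Of the 39, 12 are on the fibroblast list, which is 48% of that list and 30.8% of the calls, and 16 are on the fibroblast or transporter list. Vehicle replicate 4 was the lowest vehicle array for 24 of the 25 fibroblast markers, so leaving it out enlarges their differences by construction. These counts and adjusted p-values describe the effect of leaving that array out and are no independent support for a fibroblast difference. The lower genes included Ranbp3l (-1.06), Slc13a3 (-0.85), Slc22a6 (-0.74), Igfbp2 (-0.61), the heparin cofactor gene Serpind1 (-0.96), Itih2 (-1.07), Slc6a20a (-1.21), Slc6a12 (-1.06) and Slc13a4 (-1.17), with adjusted p between 0.000252 and 0.00223. With Igf2, Osr1, Kcnj13, Bmp6 and Bmp7 as given above, they also included Slc6a13 (-1.12), Fmod (-1.21), Ogn (-1.17), Aldh1a2 (-0.95), Foxc1 (-0.47), Tbx18 (-0.51), Slc22a2 (-0.44) and the pericyte gene Vtn (-0.38), with adjusted p between 0.00287 and 0.0366 for these 8. Alkal1 (-0.34), Serpinb13 (-0.30), Rnf207 (-0.29) and Hs3st6 (-0.26), described below, were lower too, with adjusted p between 0.00644 and 0.0467, and the gene that was higher was Ngp (0.53, adjusted p = 0.00995). Colec12, Mpzl2 and Dapl1 differed by -0.40, -0.69 and -0.80 with all arrays. Without vehicle replicate 4 they differed by -0.52, -0.98 and -1.11 (limma, adjusted p = 0.0022, 0.0067 and 0.0080). With all arrays Ranbp3l, which encodes a Ran-binding protein, measured 7.08, 7.06, 7.11 and 6.76 with celastrol, against 8.13, 8.03, 8.04 and 6.73 with vehicle. For 24 of the 38 lower genes vehicle replicate 4 lay within the celastrol range, and for 5 it lay above all celastrol arrays. When vehicle replicate 4 was instead kept as the lone vehicle array of 4 days, an alternative chosen after seeing the data, 0 genes passed and 5 of the 25 fibroblast markers were lower, with a median of 0.12. That fit takes its spread from the other groups, on the assumption that the lone array varies as they do, and because the array was picked for its low fibroblast level these values describe that choice and test nothing. The fibroblast means of the 15 arrays of 6 h and 1 day lay between 8.19 and 8.83, a range that holds all celastrol arrays and vehicle replicate 4 of 4 days but not vehicle replicates 1 to 3. With the fibroblast mean of each array as a covariate, the median of the list was -0.0070 and 1 gene passed, Serpinb13. That covariate is the mean of the same 25 genes, so a list median near 0 is built in and tests nothing.

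**Figure D2:**
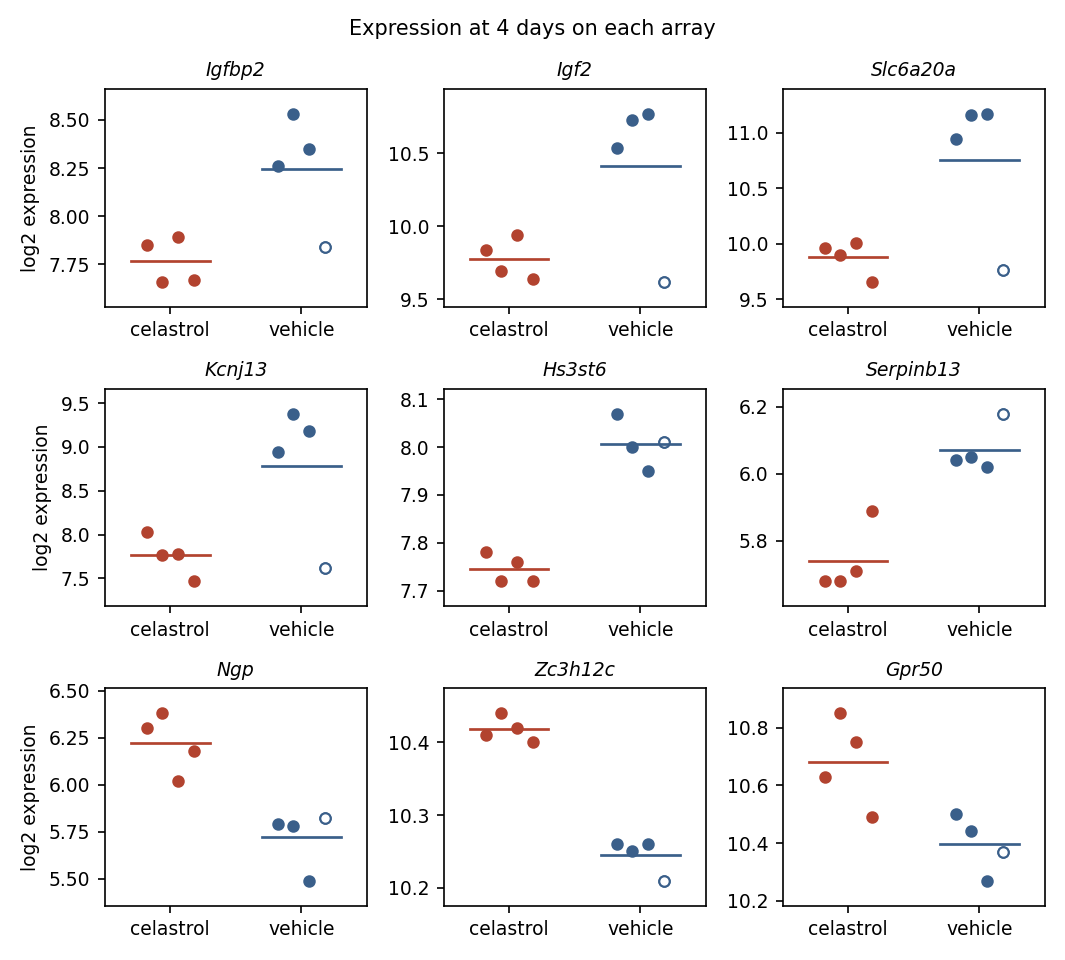
Log2 expression of 9 genes at 4 days on each array (points; celastrol left, vehicle right; vehicle replicate 4 as an open circle), with the group mean as a line. For Igfbp2, Igf2, Slc6a20a and Kcnj13 vehicle replicate 4 lies with the celastrol arrays, at 7.84, 9.62, 9.76 and 7.62; for Hs3st6, Serpinb13, Ngp and Zc3h12c the groups do not overlap.

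A second set of genes separated the groups on every array, vehicle replicate 4 included. Over all genes 1.63% were lower and 1.87% higher without overlap. Most genes given here and below were named by rules that use a small p, so their separation is in part built into the choice. Serpinb13, a serine protease inhibitor known from skin, had the smallest p of the genes that were lower. By level it lay at percentile 9.51 of all genes. It measured 5.68, 5.68, 5.71 and 5.89 with celastrol, against 6.04, 6.05, 6.02 and 6.18 with vehicle, a difference of -0.33 ± 0.0555 SE (limma, adjusted p = 0.087). The 15 arrays of 6 h and 1 day lay between 5.85 and 6.02, so 3 of the celastrol arrays were under every other array. Vehicle replicates 1, 2 and 4 lay above that range, and vehicle replicate 3 lay at its top, at 6.02. Hs3st6, which adds a sulfate to heparan sulfate chains, measured 7.78, 7.72, 7.76 and 7.72 with celastrol, against 8.07, 8.00, 7.95 and 8.01 with vehicle (difference -0.26 ± 0.0492 SE; limma, adjusted p = 0.139). The other 20 measured genes of heparan sulfate synthesis and editing did not reach an unadjusted p of 0.05.

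Il25, a cytokine of the interleukin-17 family, measured 7.09, 6.95, 7.20 and 7.12 with celastrol, against 7.40, 7.39, 7.45 and 7.40 with vehicle. Alkal1, a ligand of the receptor ALK, measured 5.19, 5.01, 5.18 and 5.18 with celastrol, against 5.34, 5.52, 5.56 and 5.29 with vehicle. The groups of both genes did not overlap, and by level Il25 lay at percentile 26.5 and Alkal1 at percentile 3.89 of all genes. Rnf207, a RING finger gene of heart, differed by -0.27 and the scavenger receptor gene Scarf2 by -0.21, each with 4 of 4 celastrol arrays under all vehicle arrays. The transmembrane protease gene Tmprss13 differed by -0.29, also without overlap.

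Ngp, which encodes a protein of neutrophil granules, had the smallest p of all genes that were higher. By level it lay at percentile 9.04 of all genes. It measured 6.30, 6.38, 6.02 and 6.18 with celastrol, against 5.79, 5.78, 5.49 and 5.82 with vehicle, a difference of 0.50 ± 0.0879 SE or 1.41-fold (limma, adjusted p = 0.087). All celastrol arrays were above all vehicle arrays, and the arrays of 6 h and 1 day reached 6.02. Of the other 14 measured markers of blood leukocytes, which include further genes of neutrophils, 0 were higher at an unadjusted p under 0.05. Cd3e, Cd8a and Nkg7 of that list were lower at an unadjusted p under 0.05. Cd3e, a chain of the T cell receptor complex, measured 7.68, 7.36, 7.73 and 7.82 with celastrol, against 7.92, 7.86, 7.88 and 7.87 with vehicle. Its groups did not overlap. Cd8a differed by -0.24 and the killer cell gene Nkg7 by -0.21. In all, 8 leukocyte markers were higher and 7 lower, with 1 higher and 3 lower at an unadjusted p under 0.05, or 6.67% and 20% beside 2.73% and 4.57% of all genes.

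Among other genes that were higher, Zc3h12c, a ribonuclease with a CCCH zinc finger, varied little within each group. It measured 10.41, 10.44, 10.42 and 10.40 with celastrol, against 10.26, 10.25, 10.26 and 10.21 with vehicle (difference 0.17 ± 0.043 SE; limma, adjusted p = 0.306). Gm4951, a predicted gene, measured 6.47, 6.34, 6.60 and 6.44 with celastrol, against 6.22, 6.01, 6.19 and 5.95 with vehicle. Laptm5, a lysosomal membrane protein of blood-derived cells, measured 9.86, 9.97, 9.88 and 9.99 with celastrol, against 9.71, 9.52, 9.52 and 9.38 with vehicle. In these 3 genes all celastrol arrays stood above all vehicle arrays. The same held for Dennd2c (0.21), Zfp157 (0.20) and Dync1i2, an intermediate chain of the motor dynein (0.18). Of the 13 measured microglia markers, beside which Laptm5 is often found, 5 were higher, with a median of -0.04 and 0 at an unadjusted p under 0.05.

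Cells of the ventricle wall differed gene by gene. Gpr50, an orphan receptor of tanycytes, measured 10.63, 10.85, 10.75 and 10.49 with celastrol, against 10.50, 10.44, 10.27 and 10.37 with vehicle, and only celastrol replicate 4 overlapped the vehicle arrays (difference 0.28 ± 0.0716 SE; limma, adjusted p = 0.308). Rax, a homeobox factor that defines tanycytes, measured 7.64, 7.51, 7.61 and 7.83 with celastrol, against 7.47, 7.33, 7.50 and 7.57 with vehicle. The tanycyte genes Adm, the vasodilator peptide adrenomedullin, and Col23a1, a transmembrane collagen, differed by -0.17 and -0.15. Of 15 tanycyte markers 8 were higher and 7 lower, with a median of 0.00, and 3 higher and 2 lower had an unadjusted p under 0.05, or 20% and 13.3% beside 2.73% and 4.57% of all genes. Of 12 ependymal markers 10 were higher with a median of 0.04, and 1, the dynein arm gene Dnah12 (0.23), had an unadjusted p under 0.05, or 8.33% beside 2.73%.

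Vessel genes were mostly lower by small amounts. Of 18 markers of pericytes and smooth muscle 15 were lower with a median of -0.07, and 3 were lower at an unadjusted p under 0.05, or 16.7% beside 4.57% of all genes. Against vehicle replicate 4 alone 5 of the 18 were lower with a median of 0.03. Vtn, the adhesion protein vitronectin, which pericytes make in brain, measured 10.82, 10.81, 10.74 and 10.68 with celastrol, against 11.11, 11.12, 11.21 and 10.73 with vehicle, again with vehicle replicate 4 inside the celastrol range. Des, the intermediate filament desmin, measured 6.99, 6.92, 7.14 and 7.18 with celastrol, against 7.23, 7.40, 7.47 and 7.26 with vehicle, with no overlap. Of 17 endothelial markers 13 were lower, their list's median was -0.03, and 0 had an unadjusted p under 0.05; the tight junction gene Cldn5 differed by -0.14. Astrocyte markers had a median of -0.0032 over 14 genes and myelin genes one of -0.02 over 14, with 0 at an unadjusted p under 0.05 in either list.

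**Figure D3:**
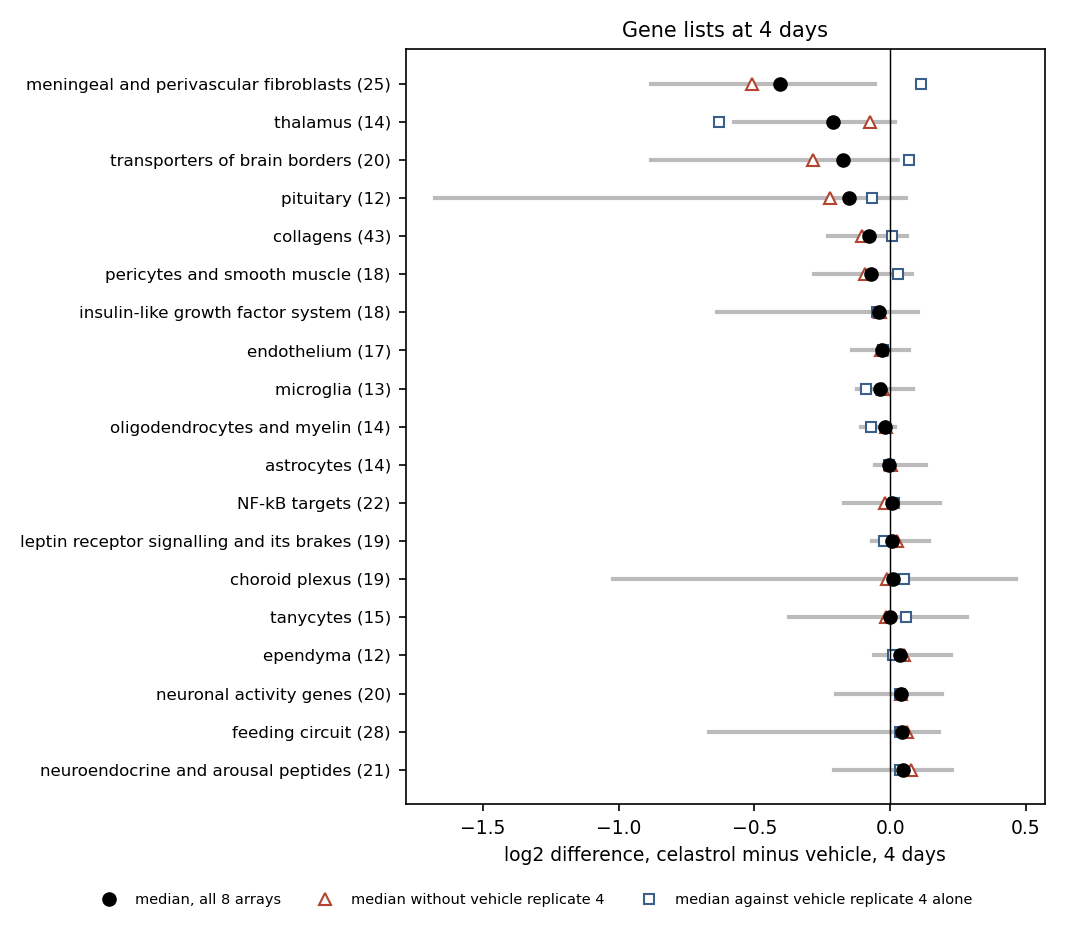
Log2 differences, celastrol minus vehicle at 4 days, in 19 gene lists (number of measured genes in brackets): the range of the members (grey bar) and their median with all 8 arrays (filled circle), without vehicle replicate 4 (triangle) and with vehicle replicate 4 as the lone vehicle array (square). The fibroblast median is -0.405 with all arrays, -0.51 without vehicle replicate 4 and 0.12 against that array alone; the thalamus median is -0.21, -0.07 and -0.63.

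Differences of feeding genes were small and none passed. Of 28 genes of the feeding circuit 23 were higher, with a median of 0.04. Beside them, 49.7% of all genes and 62.2% of the highest tercile by level were higher. In the list 1 gene in each direction had an unadjusted p under 0.05, which is 3.57% each way beside 2.73% higher and 4.57% lower over all genes. These were Mc4r, the melanocortin receptor that restrains feeding (0.18), and the serotonin receptor gene Htr2c (-0.10). Npy, a peptide that drives feeding, measured 11.66, 11.79, 11.96 and 11.61 with celastrol, against 11.59, 11.56, 11.66 and 11.54 with vehicle. Cartpt, a peptide that restrains it, measured 10.58, 10.39, 10.49 and 10.44 with celastrol, against 10.39, 10.37, 10.28 and 10.30 with vehicle. All Cartpt values with celastrol were above the vehicle values at full precision, a difference of 0.14 ± 0.0742 SE (limma, adjusted p = 0.723), and 2 celastrol arrays were above all vehicle arrays for Npy. Pomc, the precursor of melanocortins in hypothalamus and pituitary, measured 8.29, 8.16, 8.12 and 8.34 with celastrol, against 8.61, 9.85, 9.06 and 8.06 with vehicle. Its highest array, vehicle replicate 2, is also the highest for the pituitary genes Prl and Gh, and its difference was -0.67 with all arrays, -0.35 without vehicle replicate 2 and 0.02 with the mean of the pituitary markers, which do not include Pomc, as a covariate.

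Leptin signalling genes differed little. Of 19 genes of the receptor, its kinases and its inhibitors, 10 were higher and 9 lower, with a median of 0.01 and 0 at an unadjusted p under 0.05. Lepr, the receptor gene itself, measured 7.84, 8.11, 8.14 and 7.83 with celastrol, against 7.97, 7.77, 7.98 and 7.62 with vehicle, and its groups overlapped. The 95% confidence interval of its difference ran from -0.04 to 0.33. Socs3, the feedback inhibitor of the receptor, measured 7.99, 8.00, 8.23 and 8.00 with celastrol, against 8.17, 8.17, 8.23 and 7.87 with vehicle (difference -0.06 ± 0.0835 SE).

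Other neuronal lists differed in direction. Of 21 neuroendocrine and arousal peptide genes 16 were higher with a median of 0.05, and 3 were higher at an unadjusted p under 0.05, or 14.3% beside 2.73% of all genes. Without vehicle replicate 4 the median was 0.08. Of the highest tercile of all genes by level 62.2% were higher, as given above. The 3 peptide list genes at an unadjusted p under 0.05 were Pdyn, the dynorphin precursor (0.18), Hdc, which makes histamine (0.23), and Gal, the peptide galanin (0.22). Hdc measured 10.18, 10.48, 10.55 and 10.31 with celastrol, against 10.21, 10.23, 9.99 and 10.20 with vehicle. Of 20 genes that neuronal activity induces, 16 were higher, beside 49.7% of all genes, with a median of 0.04. At an unadjusted p under 0.05, 2 were higher, or 10% beside 2.73% of all genes. Npas4, a transcription factor of active neurons, measured 8.16, 8.24, 8.23 and 8.16 with celastrol, against 7.91, 8.09, 8.05 and 8.00 with vehicle. The synaptic protein gene Nptx2 differed by 0.14. In the list of transcription factors of hypothalamic nuclei 10 of 20 were higher and 10 lower, with a median of 0.0050, and 5 were higher and 2 lower at an unadjusted p under 0.05, or 25% and 10% beside 2.73% and 4.57% of all genes. Bsx, a homeobox factor of arcuate neurons, measured 8.53, 8.66, 8.70 and 8.70 with celastrol, against 8.54, 8.46, 8.31 and 8.50 with vehicle, while Lmx1b and Hmx2 differed by -0.19 and -0.16. Of 85 potassium channel subunit genes 37 were higher and 48 lower, with a median of -0.0080, and 1 was higher and 5 lower at an unadjusted p under 0.05, or 1.18% and 5.88%.

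Most inflammation lists had medians near that of all genes. Interleukin-1 family and inflammasome genes had a median of 0.01 over 18 members, NF-kB targets one of 0.01 over 22 and acute-phase and STAT3 targets one of -0.01 over 20. Il1b, the cytokine interleukin-1 beta, measured 6.49, 6.49, 6.72 and 6.93 with celastrol, against 6.70, 6.66, 6.71 and 6.54 with vehicle. Lcn2, an iron-binding acute-phase protein, measured 7.18, 7.82, 7.76 and 7.15 with celastrol, against 7.01, 7.12, 7.35 and 6.89 with vehicle; its groups overlapped (difference 0.38 ± 0.226 SE). Serpina3n, an acute-phase protease inhibitor, differed by 0.13 and the transcription factor gene Cebpd by 0.17, both higher at an unadjusted p under 0.05. In that list of 20 genes 2 were higher and 1 lower at this threshold. These are 10% and 5% of the list, beside 2.73% and 4.57% of all genes. The caspase gene Casp1 of the inflammasome differed by 0.16 and the NF-kB subunit gene Nfkb2 by -0.14. At an unadjusted p under 0.05, 1 interleukin-1 family and inflammasome gene was higher (5.56%, beside 2.73% of all genes). Among the NF-kB targets 1 was lower (4.55%, beside 4.57%). Of 25 complement and coagulation genes 17 were lower with a median of -0.04, and 3 were lower at an unadjusted p under 0.05, or 12% beside 4.57% of all genes. Serpind1 had the largest difference of them, at -0.71, and without vehicle replicate 4 the median of the list was -0.08.

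Of 22 genes of the interferon response and of antigen presentation 11 were higher and 11 lower, with a median of 0.0019. The 3 at an unadjusted p under 0.05, H2-Aa, Cd74 and Bst2, were lower, or 13.6% beside 4.57% of all genes, and none passed after adjustment. H2-Aa, a chain of the MHC class II molecule, measured 6.74, 6.49, 6.78 and 6.42 with celastrol, against 6.99, 7.14, 7.06 and 6.64 with vehicle. Cd74, its chaperone, measured 7.62, 7.38, 7.46 and 7.25 with celastrol, against 7.92, 7.74, 8.00 and 7.39 with vehicle. In both, vehicle replicate 4 was the lowest vehicle array and overlapped the celastrol arrays. H2-Ab1 differed by -0.18 and the interferon-induced membrane protein gene Bst2 by -0.21. With the fibroblast mean as a covariate Cd74 and H2-Ab1 differed by 0.01 and 0.05, and against vehicle replicate 4 alone by 0.03 and 0.10. H2-Aa and Bst2 did not change sign in either setting. The cause was not tested. The 8 markers of border macrophages, which carry class II molecules, had a median of -0.07, and 0 had an unadjusted p under 0.05.

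Protein stress and metabolism genes were close to 0. Of 18 heat shock genes 13 were higher with a median of 0.03, but the 2 at an unadjusted p under 0.05, or 11.1% beside 4.57% of all genes, were lower: Hspa1a (-0.15), the inducible chaperone, and Hspb1 (-0.15), a small one. Endoplasmic reticulum stress genes had a median of 0.01 over 23 members, proteasome subunits one of 0.01 over 39 and the respiratory chain and ATP synthase one of 0.02 over 79. Cholesterol and fatty acid synthesis genes had a median of 0.0064 over 24 members with 0 at an unadjusted p under 0.05. Sult1a1, a sulfotransferase of the glucocorticoid response list, differed by -0.25. Odorant, vomeronasal and taste receptors, which the hypothalamus hardly expresses, were lower in 741 of 1217 genes with a median of -0.03, in the direction of the genes of low level in general.

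Pituitary and thalamus genes varied more among the vehicle arrays than among the celastrol arrays: the SD of the pituitary mean was 0.129 with celastrol and 0.422 with vehicle, and that of the thalamus mean 0.0894 with celastrol and 0.299 with vehicle (n = 4 each). Of 12 pituitary markers 10 were lower with a median of -0.15. For 2 of the 12 all celastrol arrays were under all vehicle arrays, beside 1.63% of all genes. Prl and Gh, the hormones of pituitary cells, were highest on vehicle replicate 2. Prl, named after its values were seen, measured 6.37, 6.12, 6.26 and 6.47 with celastrol, against 6.61, 10.37, 7.68 and 6.47 with vehicle. Gh measured 7.61, 7.40, 7.50 and 7.79 with celastrol, against 8.43, 11.67, 8.70 and 8.23 with vehicle, a difference of -1.68 ± 1.09 SE (limma, adjusted p = 0.81), and its groups did not overlap. The thalamus gene Prkcd, a protein kinase C, measured 8.92, 9.02, 8.95 and 8.98 with celastrol, against 8.94, 9.11, 9.68 and 10.44 with vehicle. Vehicle replicates 3 and 4 were high and the other 2 lay near the celastrol arrays. Of 14 thalamus markers 13 were lower with a median of -0.21. At an unadjusted p under 0.05 stood 1, the homeobox factor Gbx2 (-0.29), or 7.14% beside 4.57% of all genes. Without vehicle replicate 4 that median was -0.07, and without it 11 of the 14 were lower.

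The test of whether the 4-day difference itself differed from the mean of those at 6 h and 1 day gave 190 genes (limma, adjusted p under 0.05, 1.02% of those tested). At 4 days 152 were lower and 38 higher relative to the earlier times. The 152 had median differences of 0.19 at 6 h, 0.17 at 1 day and -0.19 at 4 days, and both earlier differences were positive in each of them. Of these 152, 140 had a mean level below the median of all genes. The 38 had medians of -0.16 at 6 h, -0.13 at 1 day and 0.16 at 4 days. The 190 genes were chosen by this same contrast, so opposite signs at the earlier times and 4 days are in part built into the choice. These medians and signs describe the chosen genes and are no further test of a reversal. Each time has its own vehicle group, so no arrays are shared.

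Tmprss13 differed by 0.28 at 6 h, 0.27 at 1 day and -0.29 at 4 days, and Slc12a3, a sodium chloride cotransporter of kidney, by 0.35, 0.31 and -0.17. Both changed sign between 1 day and 4 days, as did Il25, Hs3st6 and Rnf207, all 5 with an adjusted p of 0.0055 (limma). Igfbp2 differed by 0.16 at 6 h, 0.21 at 1 day and -0.48 at 4 days (limma, adjusted p = 0.025). Igfbp6 (0.26, 0.25 and -0.30), Cd8a (0.14, 0.25 and -0.24) and Cd3e (0.23, 0.14 and -0.23) were also among the 152. In the other direction Pik3c2a, a class II phosphoinositide 3-kinase, differed by -0.14 at 6 h, -0.12 at 1 day and 0.14 at 4 days. Of the 25 fibroblast markers, 2 were among the 190.

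The count of 190 moved under several alternatives. The spread over genes of the arrays was 1.889 with celastrol and 1.930 with vehicle at 6 h. It was 1.915 with celastrol and 1.948 with vehicle at 1 day, and 1.912 with celastrol and 1.895 with vehicle at 4 days. With the spread of each array as a covariate 0 genes passed, and after a further quantile normalization 4. With the fibroblast, choroid plexus and pituitary means as covariates 0, 7 and 31 passed. The cause of these moves was not tested. The count was 16, 19, 290 and 760 without celastrol replicates 1, 2, 3 and 4, and 116, 23, 20 and 295 without vehicle replicates 1, 2, 3 and 4.

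**Figure D4:**
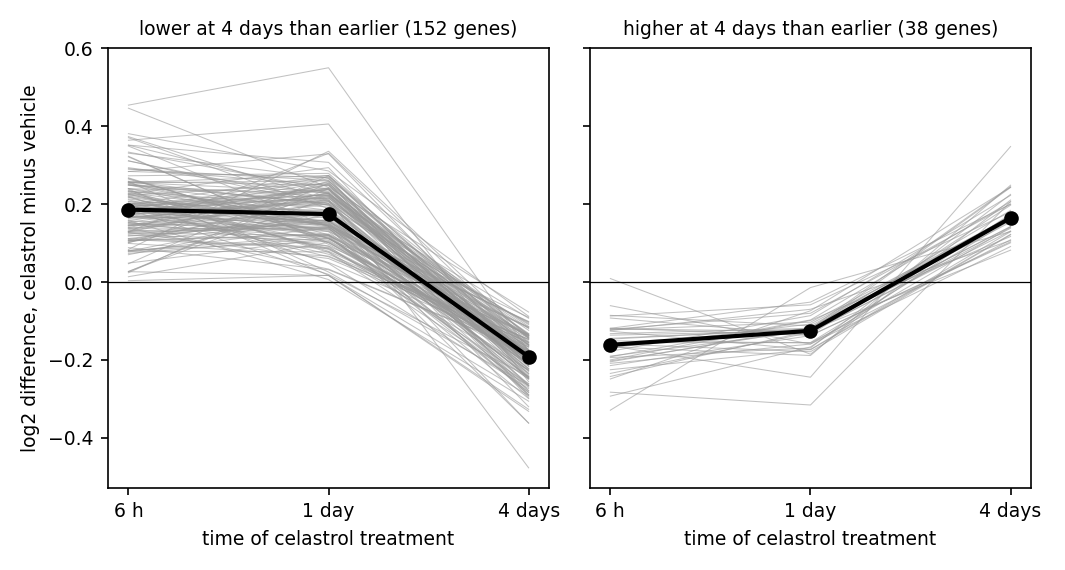
Log2 differences, celastrol minus vehicle, at 6 h, 1 day and 4 days for the 190 genes whose 4-day difference differed from the mean of the earlier ones (thin lines, 1 per gene; black points, medians). The 152 genes of the left panel have medians of 0.19, 0.17 and -0.19 and the 38 of the right panel -0.16, -0.13 and 0.16. The genes were chosen by this contrast, so the change of direction is in part built in.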

How the data were processed

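Total RNA of the hypothalamus was hybridised to Affymetrix whole-transcript arrays, 1 per sample. The authors deposited log2 expression for each probe set, computed by RMA according to what is recorded per the submitters' processing notes. Which software was run and which arrays were normalised together is not given in the sources. The values were used without further change. Of 23492 probe sets, 20228 named 1 gene in the array's annotation table (20182 under a current symbol, 46 under an older one), 1399 several and 1865 none. Where several probe sets named a gene (809 genes), the one of highest mean was taken. This left 18704 genes, with no filter on level.

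A limma model (limma 3.58.1, R 4.3.3) with a mean for each of 6 groups was fitted over the 23 arrays (17 residual and 5.424 prior degrees of freedom; eBayes without trend; Benjamini-Hochberg at 0.05), with the contrasts of celastrol against vehicle at 4 days and of that difference against the mean of those at 6 h and 1 day. The fit was also run on simulated data with seeded changes, and no result given here rests on that run. Array median and spread were compared by exact permutation tests. The 45 gene lists were described by counts and medians, with no test. Unadjusted p-values serve only as a background share.

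The comparison, lists and alternatives were chosen with earlier results of these data known. Genes named are the 15 of smallest p and the 10 of largest difference (unadjusted p under 0.01) per direction, up to 4 of smallest p per list, a fixed set (Lepr, Npy, Pomc, Cartpt, Socs3, Lcn2, Il1b, Igfbp2 and Gpr50), up to 5 per direction of the contrast between times and up to 10 per direction past 0.05 with 1 array left out. Not all are printed. Named outside the rule, after their values were seen, were Prl, Bmp6, Bmp7, Ogn, Foxc1, Dcn, Ptgds, Col1a1, Colec12 and Mpzl2. The alternatives were another normalization, filter on level, variance model, array weighting, control group or probe set rule, a replicate block, marker or spread covariates, and each 4-day array left out; vehicle replicate 4 as the lone 4-day vehicle array was chosen after seeing the data. Promoter windows are RefSeq sequences on GRCm38.p6.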

Additional observations from a re-analysis of the deposited data

Results flagged for a closer look

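Of 198 groups of 4 arrays, 2 for each of 99 genes, 20 held an array far from the other 3, which chance gives in about 1 in 20 groups. Some of the 99 genes were named because they passed with 1 array left out, in most cases vehicle replicate 4, or after their values were seen, so low values on that array are in part built into the choice and the share of 1 in 20 is no standard for them. Vehicle replicate 4 was the low array in 12 of the 20: it lay at 8.04 for Aldh1a2, 8.85 for Colec12, 10.01 for Dcn, 7.50 for Ogn, 8.19 for Osr1, 6.73 for Ranbp3l, 8.61 for Serpind1, 7.91 for Slc6a12, 8.52 for Slc6a13, 9.76 for Slc6a20a, 7.87 for Socs3 and 7.04 for Tbx18. The mean of the fibroblast markers was also lowest on that array, at 8.41. The others among the 20 were celastrol replicate 2 for Alkal1 (low, 5.01) and Pdyn (high, 9.23), celastrol replicate 3 for Socs3 (high, 8.23), celastrol replicate 4 for Ranbp3l (low, 6.76) and Serpinb13 (high, 5.89), vehicle replicate 2 for Gh (high, 11.67) and vehicle replicate 3 for Hdc (low, 9.99) and Ngp (low, 5.49). Among the list means, celastrol replicate 1 was high for oligodendrocyte precursors (9.62) and for cortex and hippocampus (9.24), and celastrol replicate 2 was low for complement and coagulation (7.91).

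The 4-day difference differed from the mean of the earlier ones for 20 of the 99 genes that were followed through the alternatives (limma, adjusted p under 0.05). The 4-day difference minus the earlier mean was -0.31 for Alkal1, -0.44 for Bst2, -0.42 for Cd3e, -0.44 for Cd8a, -0.37 for Col14a1, -0.40 for Des, -0.40 for Hs3st6, -0.67 for Igfbp2, -0.55 for Igfbp6 and -0.51 for Il25. It was -0.30 for Lmx1b, -0.44 for Rnf207, -0.35 for Scarf2, -0.34 for Serpinb13, -0.50 for Slc12a3, -0.47 for Slc22a2 and -0.57 for Tmprss13. It was 0.25 for Dync1i2, 0.28 for Pik3c2a and 0.31 for Zfp157.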

How the results depend on the processing

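The count of genes past an adjusted p of 0.05 at 4 days was 0 and became 39 with all vehicle arrays as the control (23 higher, 16 lower), 1 with the choroid plexus mean and 1 with the fibroblast mean as a covariate, and 0 to 39 when each 4-day array was left out. With the replicate block it was 1 (Ngp). Same-numbered arrays correlated at -0.083 to 0.045 once each group's mean was taken out, and 0 of 4 celastrol arrays matched their own number best. These values show no pairing by number, but so few pairs cannot exclude one. The count at an unadjusted p under 0.05 was 829 without the lowest tercile of genes, 547 without genes of under the median level, both of which test fewer genes, and 2834 with all vehicle arrays as the control. The 190 genes of the contrast between times became 4 after quantile normalization, 94 without the lowest tercile, 9 without genes of under the median level, 111 with trend and robust variance, 119 with the replicate block, 7, 0 and 31 with the choroid plexus, fibroblast and pituitary means and 0 with the array spread as covariates, 0 with the lone vehicle array and 16 to 760 without single arrays. The largest came without celastrol replicate 4 and the smallest without celastrol replicate 1. Without vehicle replicate 1 the gene that passed at 4 days was Olfr1281, without celastrol replicate 3 Ngp and without celastrol replicate 4 Serpinb13. Of 964 recomputed list medians 52 moved by more than the spread between replicates. No background signal comes with the values, so genes of low level have no bound here. For these moves the cause was not tested.

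Of 2191 recomputed gene differences 52 changed sign. Against vehicle replicate 4 as the lone vehicle array, picked for its low fibroblast level, the differences were 0.061 for Aldh1a2, 0.046 for Bmp6, 0.077 for Bmp7, 0.035 for Cd74, 0.018 for Col1a1, 0.11 for Dapl1, 0.28 for Dcn, 0.18 for Fmod, 0.25 for Foxc1, 0.096 for H2-Ab1, 0.16 for Igf2, 0.052 for Itih2, 0.14 for Kcnj13, 0.19 for Mpzl2, 0.35 for Ogn, 0.051 for Osr1, 0.17 for Pomc, 0.17 for Ptgds, 0.28 for Ranbp3l, 0.13 for Rbp4, 0.034 for Serpind1, 0.084 for Slc13a3, 0.052 for Slc13a4, 0.11 for Slc22a6, 0.38 for Slc6a12, 0.24 for Slc6a13, 0.12 for Slc6a20a, 0.18 for Socs3 and 0.032 for Vtn. With the fibroblast mean as a covariate they were 0.011 for Cd74, 0.32 for Dcn, 0.029 for Foxc1, 0.029 for Gh, 0.050 for H2-Ab1, 0.12 for Ogn, 0.18 for Pomc, 0.33 for Prl, 0.060 for Ptgds, 0.017 for Slc6a12 and 0.099 for Socs3. Dcn, Foxc1, Ogn and Ptgds are themselves part of that mean, so their values here are in part built in. With all vehicle arrays as the control they were -0.038 for Adcyap1, 0.010 for Nkg7, 0.013 for Ptgds, -0.0022 for Serpina3n, 0.12 for Slc12a3 and 0.054 for Socs3. Socs3 was at 0.026 with the choroid plexus covariate and Pomc at 0.023 with the pituitary covariate. Il1b was at -0.015 with array weights and between -0.085 and 0.061 without single arrays. The cause was not tested.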
